A study of Arabidopsis thaliana with 23 samples.

Results

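The young miRNA families of Arabidopsis are the 239 mature miRNAs of the small RNA table whose miRNA number is 770 or higher, leaving out miR774, miR824, miR827, miR828, miR843, miR857, miR859 and miR2111. The table holds 428 mature miRNAs of 215 families, and 159 of these families are young by this rule. The rule reads only the number in the name and the listed exclusions, but it was chosen with earlier results of these data known. The left-out miR774a differed strongly between the genotypes (values below). The conservation of the sequences in other species was not analysed here. The small RNA libraries came from whole seedlings of Arabidopsis thaliana, 3 libraries in each of 4 groups. The groups were wild type on MS medium, wild type in NaCl, the mutant sos2-2 on MS medium and sos2-2 in NaCl, and 11 mRNA libraries covered the same groups (3 in each, 2 analysed for sos2-2 on MS). All seedlings were kept 2 days in the cold and then grew 10 days at 22 °C in constant light on MS medium with 3% sucrose, and the salt groups were then placed for 12 hours in liquid MS medium with 100 mM NaCl. The series' design text names the wild type gl1, the labels do not say what the sos2-2 allele changes, and it is not stated if seedlings of the MS groups were put in liquid too, so salt and the transfer to liquid cannot be told apart. Replicates are not said to come from separate cultures either, so the p-values reflect how far these libraries vary, and that variation may be technical.

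In plants, an miRNA is cut from the hairpin of its precursor RNA by the nuclease DCL1, which works with the zinc-finger protein SERRATE, and the released strand guides cleavage of mRNAs that pair with it along nearly its whole length. Young miRNA genes are those found in a single species or its close relatives; they are generally expressed at low level and often exist as 1 gene copy, and many have no known target. SOS2 is a protein kinase of the salt overly sensitive pathway, in which it activates the sodium/proton antiporter SOS1.

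The sequences of the young miRNAs that the results below turn on are printed here because several of them are identical to each other, share a precursor or match another RNA. They were read from the RefSeq annotation and genome (build TAIR10.1), 5′ to 3′, with bases 2 to 8 in capitals; 238 of the 239 members were matched there by name, all but miR10515. The first 6 are the most abundant members, and the others passed a test in at least 1 comparison or are an identical copy (miR5642a) or the partner arm (miR863-3p) of one that did.
miR863-5p: uUAUGUCUuguugaucucaau
miR773a: uUUGCUUCcagcuuuugucuc
miR846-3p: uUGAAUUGaagugcuugaauu
miR822-5p: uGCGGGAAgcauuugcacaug
miR5026: aCUCAUAAgaucgugacacgu
miR775: uUCGAUGUcuagcagugcca
miR3434-5p: aCUUGGCUgauucuauuauu
miR866-3p: aCAAAAUCcgucuuugaaga
miR3932b-3p: aACUUUGUgaugacaacgaag
miR3932b-5p: uUUGACGUgcucgaucugcuc
miR5020b: aUGGCAUGaaagaaggugaga
miR5633: uAUGAUCAucagaaaacagug
miR8175: gAUCCCCGgcaacggcgcca
miR845a: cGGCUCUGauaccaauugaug
miR3932a: aACUUUGUgaugacaacgaag
miR5642a: uCUCGCGCuuguacggcuuu
miR5642b: uCUCGCGCuuguacggcuuu
miR863-3p: uUGAGAGCaacaagacauaau
On TAIR10.1, miR775 lies at chr1:29422546-29422565 on the plus strand and outside any protein-coding gene, and miR3434-5p lies at chr5:7583305-7583324 on the minus strand within an intron of AT5G22770. miR866-3p (chr5:16157838-16157857, minus strand) and miR5020b (chr4:6787108-6787128, minus strand) are intergenic. miR845a (chr4:12217457-12217477, minus strand), a miRNA known to pair with the primer binding site of retrotransposons, is intergenic too. miR8175 is annotated at chr2:3740938-3740957 on the plus strand, and its 20 bases are also exactly the 3′ end of 22 annotated genes of tRNA-Asp once the CCA end of a mature tRNA is added. No other miRNA of the table matched any of the 684 annotated tRNA genes in this way.

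The young miRNAs were many and scarce. Of the 239 members, 8 had no read in any of the 12 libraries (miR782, miR832-3p, miR867, miR868-3p, miR1886.2, miR1887, miR2934-3p and miR5018), which allows up to 0.0137 RPM (reads scaled to library depth) over all libraries together, a limit of 3 reads that covers counting error only. A further 90 averaged under 1 RPM, 88 averaged 1 to 10 RPM, 47 averaged 10 to 100 RPM and 6 averaged 100 RPM or more. The libraries held 16690750 to 19644812 reads, so 1 RPM stood for 16.7 to 19.6 reads, and between 207 and 217 young members were detected in a library. The 6 most abundant members, averaged over 12 libraries, were miR863-5p at 339 RPM, miR773a at 299 RPM, miR846-3p at 291 RPM, miR822-5p at 281 RPM, miR5026 at 269 RPM and miR775 at 250.0 RPM. These 6 together held 52.7% of all young RPM, and the 98 members that averaged under 1 RPM held 0.795%.

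For some of the abundant members a target is known. miR773a is known to target the DNA methyltransferase gene MET2, miR846-3p jacalin lectin genes, miR775 the cell-wall galactosyltransferase gene GALT9 and the minor arm miR863-3p the SERRATE gene SE. Just inside the number rule, miR771 stood between 0.322 and 1.33 RPM over the 12 libraries. Just outside it, miR472-3p stood between 36.8 and 48.5 RPM and miR472-5p between 43.9 and 62.1 RPM. The left-out miR774a stood at 5.69, 5.63 and 5.53 RPM in wild type on MS and 7.01, 6.15 and 7.08 RPM in wild type in NaCl, but at 0, 0.115 and 0 RPM in sos2-2 on MS and 0.111, 0 and 0.0533 RPM in sos2-2 in NaCl; both forms of miR774b had at most 0.117 RPM in any library. The mRNA libraries of these seedlings held shoot and root markers: in TPM (transcript levels scaled to length and depth), RBCS1A reached 2319 to 9154 TPM, LHCB1.3 1502 to 4214 TPM and CA1 51.7 to 220.2 TPM, while the root genes RCI3, COBL9 and EXPA7 were detected in every library at 3.21 to 9.49, 1.06 to 2.67 and 0.771 to 2.38 TPM.

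Young miRNAs took a small share of all miRNA reads, and that share was lower in the mutant. They made up 3.41% ± 0.138 (SD, n = 3) of the listed miRNA RPM in wild type on MS and 3.46% ± 0.0916 (SD, n = 3) in wild type in NaCl. In sos2-2 the share was 3.00% ± 0.0906 (SD, n = 3) on MS and 3.15% ± 0.106 (SD, n = 3) in NaCl. The libraries of the genotypes did not overlap in either medium: wild type spanned 3.30 to 3.56% on MS and 3.35 to 3.53% in NaCl, and sos2-2 spanned 2.90 to 3.07% on MS and 3.03 to 3.23% in NaCl. Within a genotype the media overlapped in wild type (3.30 to 3.56% against 3.35 to 3.53%) and in sos2-2 (2.90 to 3.07% against 3.03 to 3.23%). As RPM, the young total overlapped between the genotypes on MS (2984 to 3712 in wild type, 2960 to 3168 in sos2-2). In NaCl it did not (3494 to 3756 against 2969 to 3218). The listed total ran from 83725 to 110760 RPM in wild type on MS. The separation on MS thus holds for the share and not for the young RPM itself. Since these are bulk seedlings, fewer cells with a miRNA and less of it per cell cannot be told apart.

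The young miRNAs also differed from the rest of the table in sequence and in gene position, which is given here as a description. The 141 young members that averaged at least 1 RPM had a median of 6.12 RPM, against 62.8 RPM for the 152 other miRNAs past the same level. Of these 141, 99 (70.2%) were 21 nucleotides long and 21 were 22 nucleotides long. The first base was U in 51.8% and A in 36.2% of the young miRNAs, against 59.9% and 12.5% of the others, and a 5′ A is known from other work to favour loading into AGO2 or AGO4, a 5′ U into AGO1. The median GC content was 38.1% in the young and 50.0% in the other miRNAs. A single exact copy in the genome was found for 96 of 141 young and 77 of 152 other miRNAs.

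Host genes were common among the young miRNAs. On the same strand as a protein-coding gene, 26 of the 141 lay in an intron and 18 in an exon, against 4 and 2 of the 152 others; 85 young and 137 other miRNAs overlapped no protein-coding gene. Young precursors had a median length of 158 bases and the others 124.5 bases. One host gene is DCL1 itself, whose intron holds miR838 at chr1:28635-28655 on the plus strand; miR838 was picked out for this position after its values were seen. It stood at 11.5, 11.6 and 13.8 RPM in wild type on MS, 12.2, 10.3 and 10.8 RPM in wild type in NaCl, 12.2, 11.5 and 9.10 RPM in sos2-2 on MS and 9.48, 10.0 and 8.90 RPM in sos2-2 in NaCl. In NaCl the libraries of sos2-2 were all below those of wild type. The same held for 24.6% of all miRNAs that averaged at least 1 RPM, and for 39 of the 141 young ones. On MS the genotypes overlapped for miR838.

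Some young miRNAs are indistinguishable as molecules. Among the tested members, 25 fell into 8 groups with the same mature sequence, for example the 6 copies miR8167a to miR8167f and the pair miR781a and miR781b. Yet the table gave members of a group different levels, 1.07-fold apart for the pair miR2933a and miR2933b and up to 5.79-fold apart for the 5 copies of miR5645. miR5642a averaged 4.71 times the RPM of miR5642b (86.0 against 18.2 RPM), although both read ucucgcgcuuguacggcuuu. The sources used here do not say how the authors assigned a read that fits several genes, so differences between identical members are uncertain, and the sum over a group is the quantity the sequence itself fixes. Apart from identical sequences, only miR841a-5p and miR841b-5p shared bases 2 to 8 (ACGAGCC).

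For tests, each level was taken as log2(RPM + 1), which understates changes of low miRNAs, and limma was fitted to all 293 miRNAs of the table that averaged at least 1 RPM. A change is called where its p, adjusted over all 293 by the Benjamini-Hochberg method, is under 0.05. The median miRNA moved by 0.10 with salt in wild type, by -0.04 with salt in sos2-2, and by 0.01 on MS and -0.14 in NaCl between the genotypes (log2). Log2 changes below are therefore given relative to the median miRNA with their standard errors, while the adjusted p-values come from the levels as deposited.

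Salt in wild type changed few young miRNAs. Of 141 tested, 4 were called, 3 higher and 1 lower, which is 2.84% where 4.44% of all tested miRNAs were called (2.73% higher and 1.71% lower). With each library centred on its median miRNA the split turned to 1 higher and 3 lower. The libraries did not overlap for 28 of the 141 (19.9%), 22 of them higher and 6 lower, against 19.5% of all tested miRNAs (15.7% higher and 3.75% lower). The median young change was -0.02 relative to the median of all miRNAs.

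The most abundant young miRNA to respond was miR775. It stood at 174, 229.8 and 220.3 RPM in wild type on MS and at 349, 281 and 310.2 RPM in NaCl. Every salt library was above every MS library, and miR775 rose by 0.49 ± 0.13 (log2 ± SE) with an adjusted p of 0.00649 by limma. Without NaCl replicate 1 this adjusted p was 0.0787.

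Scarcer members rose with miR775. miR3434-5p, whose hairpin lies in an intron, went from 4.78, 7.43 and 4.77 RPM on MS to 9.05, 8.57 and 11.1 RPM in NaCl, with no overlap. It rose by 0.58 ± 0.17 (log2 ± SE; limma adjusted p = 0.0230). That call was lost without MS replicate 1 or 3 or NaCl replicate 1 or 3 (adjusted p up to 0.141), with centred libraries (0.0675) and with no level filter (0.0825). miR3932b-3p went from 4.08, 3.89 and 3.20 RPM to 5.90, 6.37 and 6.16 RPM, also with no overlap. It rose by 0.50 ± 0.17 (log2 ± SE; limma adjusted p = 0.0398). The call ended without any 1 of the MS replicates 1 and 3, the NaCl replicates 1 to 3 or, outside the comparison, replicate 3 of either sos2-2 group (adjusted p up to 0.194). It also ended with centred libraries (0.126), with no level filter (0.101) and in the count tests with edgeR and DESeq2 (0.0569 to 0.204). miR3932a, with the same sequence, stood at 1.99, 2.16 and 1.52 RPM on MS and at 1.99, 1.98 and 2.04 RPM in NaCl, overlapping. Summed, the sequence stood at 5.61 ± 0.774 RPM on MS and 8.14 ± 0.239 RPM in NaCl (SD, n = 3), without overlap.

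miR866-3p was the 1 young miRNA that limma called lower with salt in wild type. It went from 14.5, 16.3 and 13.6 RPM on MS to 10.6, 9.34 and 10.995 RPM in NaCl. The groups did not overlap, and the change was -0.58 ± 0.13 (log2 ± SE; limma adjusted p = 0.0400). Leaving out any of the 6 libraries compared, or replicate 3 of either sos2-2 group, ended the call (adjusted p up to 0.126), as did fitting with no level filter (0.0781) or only the groups compared (0.0519), whereas centring lowered the adjusted p to 0.000847. Its partner arm miR866-5p had a change of -0.37 ± 0.15 that was not called (adjusted p = 0.364). With centred libraries miR866-5p (adjusted p = 0.0317) and miR5650 (-0.54, adjusted p = 0.0318) were called lower too.

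**Figure D1:**
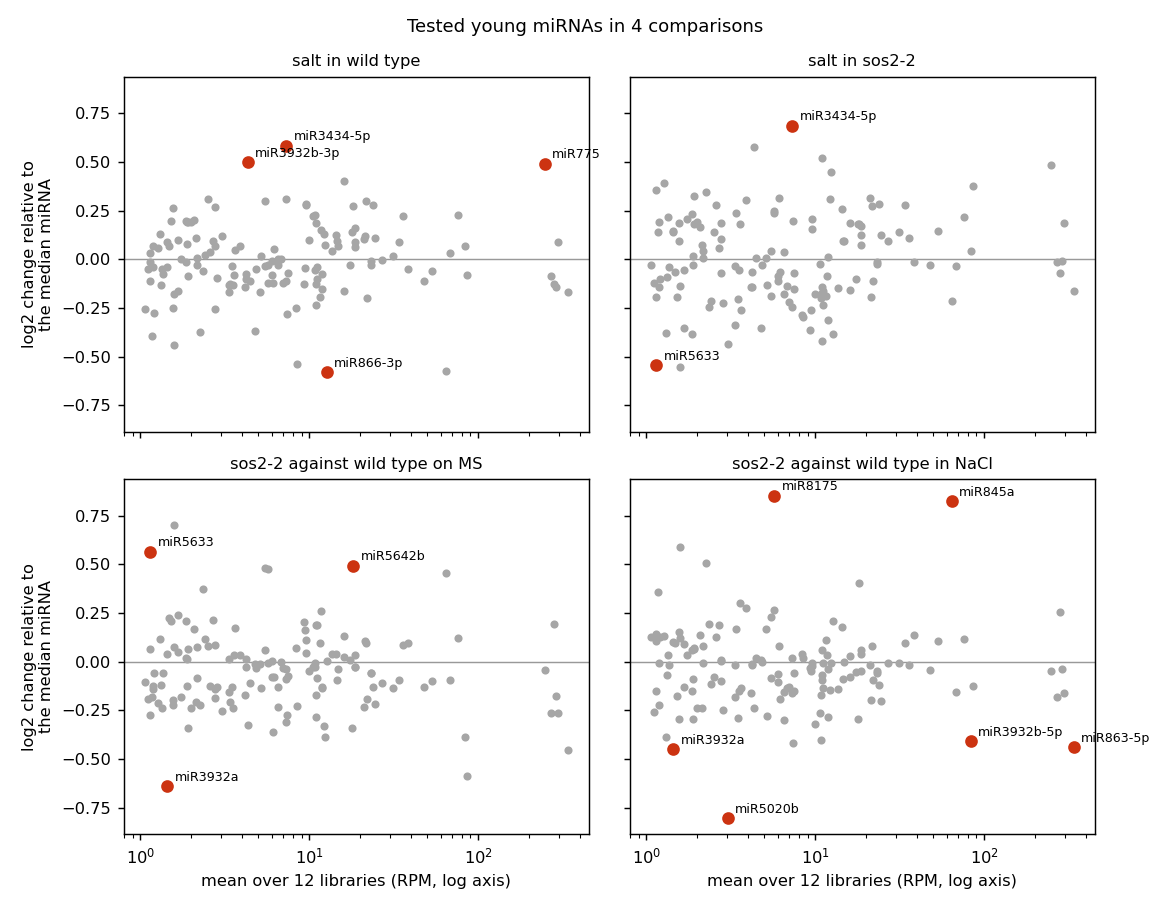
Each panel plots 1 comparison, with the mean level of the 141 tested young miRNAs over 12 libraries (RPM, log axis) against their log2 change relative to the median miRNA; red points were called by limma. Called points number 4, 2, 3 and 6, and most of the grey points lie between -0.5 and 0.5.

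Salt in sos2-2 gave 2 called young miRNAs, 1 higher and 1 lower, or 1.42% where 3.75% of all tested miRNAs were called (1.71% higher and 2.05% lower). With centred libraries 10 were called, 6 higher and 4 lower. The libraries did not overlap for 26 members (18.4%), 7 higher and 19 lower, against 23.5% of all tested miRNAs (8.87% higher and 14.7% lower). The median young change was -0.02 relative to the median miRNA.

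miR3434-5p rose in the mutant as well. It stood at 6.71, 5.07 and 4.10 RPM on MS and at 8.82, 9.03 and 8.26 RPM in NaCl, with no overlap. The change was 0.69 ± 0.17 (log2 ± SE; limma adjusted p = 0.0381). It was not called without sos2-2 MS replicate 2 or 3, any 1 of the sos2-2 NaCl replicates or wild type NaCl replicate 3 (adjusted p up to 0.154), nor with no level filter (0.0913). miR5633, a young miRNA with no target in the list used here, fell from 2.18, 1.44 and 1.97 RPM to 0.887, 0.956 and 0.852 RPM. The groups did not overlap, and its change was -0.54 ± 0.16 (log2 ± SE; limma adjusted p = 0.0381). At this low level the size depends on the pseudocount, between -0.19 and -1.01 over the settings tried. The call ended without sos2-2 MS replicate 1 or 3, any 1 of the sos2-2 NaCl replicates or wild type NaCl replicate 3 (adjusted p up to 0.162), with a pseudocount of 0.1 (0.0561) and with no level filter (0.0507).

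The other salt responders of wild type were close to the threshold in the mutant, short of it in the limma fit described above and past it in others. miR775 stood at 223, 192 and 192 RPM in sos2-2 on MS and at 273, 275 and 276 RPM in NaCl. These libraries did not overlap either, and the change of 0.48 ± 0.13 (log2 ± SE) had a limma adjusted p of 0.0512. miR3932b-3p had a change of 0.58 ± 0.17 (adjusted p = 0.0622) and miR866-3p one of -0.38 ± 0.13 (adjusted p = 0.0635). All 3 were called with centred libraries (adjusted p from 0.00448 to 0.0233), with the replicate number as a block (0.0412 to 0.0452) and in every count test (up to 0.0207).

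Tested directly, a difference between the genotypes in the response to salt was detected for no young miRNA. The interaction of genotype and salt called 0 of 141 by limma, and 0.0% of all tested miRNAs. At an unadjusted p under 0.05 it held 9 of the 141 (6.38%), where 6.14% of all tested miRNAs did. edgeR with either scaling and DESeq2 called 0 as well, on 11 or 12 libraries. The largest interaction estimates in each direction were 0.72 ± 0.23 for miR839-5p and -0.55 ± 0.28 for miR5020b (log2 ± SE, relative to the median miRNA), both at an adjusted p of 0.583. For miR775 the estimate was -0.01 ± 0.18 (adjusted p = 0.785).

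**Figure D2:**
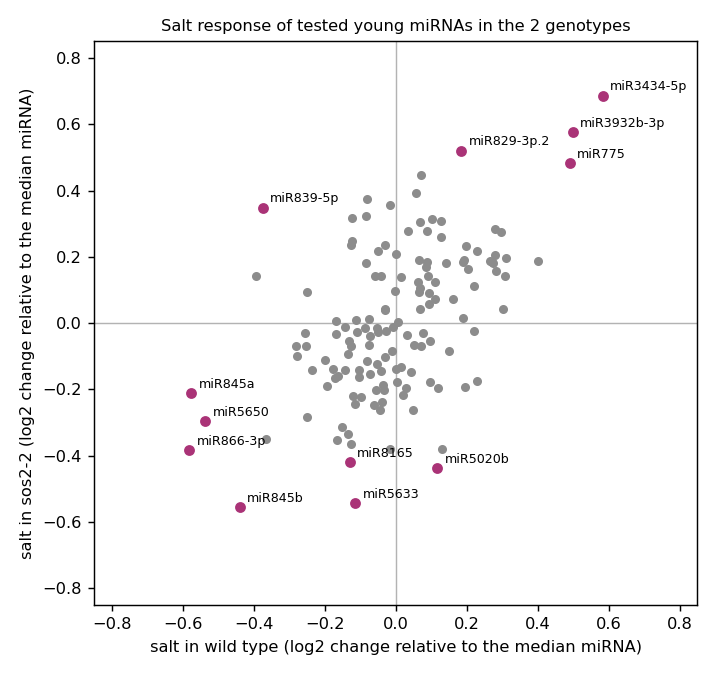
Each point is 1 of the 141 tested young miRNAs, with the log2 change with salt in wild type on the x axis and in sos2-2 on the y axis, both relative to the median miRNA; purple points carry names. miR3434-5p, miR3932b-3p and miR775 lie at the upper right (0.48 or more in both genotypes) and miR866-3p at the lower left. The comparisons share no library, and as a description 100 of 141 members had the same sign in both, with Pearson's r of 0.53 and Spearman's rho of 0.48 across miRNAs, which are not independent replicates.

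On MS medium, sos2-2 differed from wild type in 3 of 141 young miRNAs, 2 higher and 1 lower, or 2.13% where 4.44% of all tested miRNAs were called (3.75% higher and 0.683% lower). With centred libraries 5 were called, 1 higher and 4 lower. The libraries did not overlap for 10 members (7.09%), 6 higher and 4 lower, against 12.3% of all tested miRNAs (9.56% higher and 2.73% lower). The median young difference was -0.06.

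miR3932a was lower in the mutant. It stood at 1.99, 2.16 and 1.52 RPM in wild type on MS and at 0.615, 1.09 and 0.904 RPM in sos2-2, with no overlap. The difference was -0.64 ± 0.16 (log2 ± SE; limma adjusted p = 0.0333), and it ranged from -0.24 to -1.12 with the pseudocount and the tool. It was not called without wild type MS replicate 1 or 2, sos2-2 MS replicate 1 or 3 or wild type NaCl replicate 3 (adjusted p up to 0.0833), nor with only the groups compared (0.0747). miR3932a has the same sequence as miR3932b-3p, and the sum of both was 5.61 ± 0.774 RPM in wild type and 3.69 ± 0.367 RPM in sos2-2 on MS (SD, n = 3).

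miR5633 was higher in sos2-2 on MS, the same 2.18, 1.44 and 1.97 RPM that fell with salt, against 0.859, 1.26 and 0.651 RPM in wild type. No libraries overlapped, and the difference was 0.57 ± 0.16 (log2 ± SE; limma adjusted p = 0.0419). The call ended without wild type MS replicate 1 or 3, sos2-2 MS replicate 1 or 3, wild type NaCl replicate 3 or sos2-2 NaCl replicate 3 (adjusted p up to 0.195). It also ended with a pseudocount of 0.1 (0.0513), with only the groups compared (0.104) and by DESeq2 on 11 libraries (0.0805). miR5642b was higher too, at 22.0, 18.1 and 18.9 RPM in sos2-2 against 14.8, 12.5 and 13.4 RPM in wild type, a difference of 0.49 ± 0.14 (log2 ± SE; limma adjusted p = 0.0419). Leaving out any of the 6 MS libraries, or NaCl replicate 3 of either genotype, ended that call (adjusted p up to 0.159). So did a pseudocount of 5 (0.0518), a filter at 5 RPM (0.0518), no filter (0.0850), centring (0.0501), fitting only the groups compared (0.104) and edgeR on all 12 libraries (up to 0.0835). Its identical partner miR5642a went the other way, at 134, 67.2 and 97.4 RPM in wild type and 68.2, 62.5 and 61.6 RPM in sos2-2, with overlapping libraries and no call (-0.59 ± 0.19, adjusted p = 0.0862; 0.0241 with a replicate block). Summed, the sequence stood at 113 ± 34.9 RPM in wild type and 83.8 ± 5.54 RPM in sos2-2 (SD, n = 3).

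In NaCl, sos2-2 differed from wild type in 6 of 141 young miRNAs, 2 higher and 4 lower, or 4.26% where 3.41% of all tested miRNAs were called (1.71% in each direction). With centred libraries 5 were called, 2 higher and 3 lower. The libraries did not overlap for 44 members (31.2%), 5 higher and 39 lower, against 31.4% of all tested miRNAs (6.83% higher and 24.6% lower). The median young difference was -0.03 relative to the median miRNA, which itself stood 0.14 lower in sos2-2.

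In the limma fit, relative to the median miRNA, the largest called difference belonged to miR8175, the sequence that also ends tRNA-Asp. It stood at 5.26, 4.07 and 3.61 RPM in wild type and at 8.65, 6.59 and 7.83 RPM in sos2-2 in NaCl. The genotypes did not overlap, and the difference was 0.85 ± 0.15 (log2 ± SE; limma adjusted p = 0.00785). On MS the values were 4.72, 3.95 and 4.39 RPM against 6.71, 5.76 and 7.08 RPM, again without overlap, and the difference of 0.47 ± 0.15 was not called (adjusted p = 0.0711; 0.0263 with a replicate block). The NaCl call ended without wild type NaCl replicate 3 or sos2-2 NaCl replicate 1 or 3 (adjusted p up to 0.0815). Whether these reads came from a miRNA hairpin or from tRNA was not tested.

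miR845a was also higher in the mutant in salt, at 62.1, 76.5 and 68.6 RPM against 42.0, 36.5 and 49.5 RPM. The difference of 0.82 ± 0.19 (log2 ± SE) had a limma adjusted p of 0.0443. It was not called by edgeR or by DESeq2 on 11 libraries (adjusted p from 0.0501 to 0.280), though DESeq2 on all 12 called it (0.00359). Nor was it called above 5 RPM (0.0696), with no filter (0.146), or without any 1 of the NaCl libraries, wild type MS replicate 3 or sos2-2 MS replicate 3 (up to 0.252). On MS, sos2-2 replicate 2 stood apart at 124 RPM, beside 57.5 and 78.0 RPM, and wild type at 65.2, 56.5 and 56.3 RPM. miR845b, from a nearby hairpin (chr4:12214086-12214107, minus strand), showed the same replicate high, at 1.12, 5.41 and 2.39 RPM, and limma called it in no comparison, except on MS with a replicate block (0.0406).

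miR5020b fell furthest. In NaCl it stood at 4.44, 3.96 and 4.02 RPM in wild type and at 1.66, 2.23 and 1.23 RPM in sos2-2, with no overlap. The difference was -0.80 ± 0.20 (log2 ± SE; limma adjusted p = 0.00785), and it was not called without sos2-2 NaCl replicate 3 (0.0703) or by edgeR on 11 libraries (up to 0.0642). On MS the mutant libraries were spread over 1.90, 4.61 and 2.18 RPM and overlapped wild type at 3.11, 3.65 and 3.47 RPM.

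miR863-5p, the most abundant young miRNA, was lower in the mutant. In NaCl it stood at 370.1, 381 and 412 RPM in wild type and at 234, 292 and 255 RPM in sos2-2. The genotypes did not overlap, and the difference was -0.44 ± 0.13 (log2 ± SE; limma adjusted p = 0.0108). It was not called without wild type NaCl replicate 3 or sos2-2 NaCl replicate 1 or 3 (adjusted p up to 0.0877). On MS it stood at 351, 479 and 398 RPM against 292, 306 and 299 RPM, also without overlap, and the difference of -0.45 ± 0.13 missed the threshold (adjusted p = 0.0525). It was called with centred libraries (0.00357), with a replicate block (0.0302) and in every count test (2.3e-06 to 0.00253).

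The hairpin of miR3932b gave a further called member. miR3932b-5p stood at 98.1, 105 and 104 RPM in wild type and at 59.2, 79.2 and 72.8 RPM in sos2-2 in NaCl, with no overlap. The difference was -0.41 ± 0.14 (log2 ± SE; limma adjusted p = 0.0273). The call ended without any 1 of the wild type NaCl replicates or sos2-2 NaCl replicate 1 or 3 (adjusted p up to 0.171). miR3932a was called lower here as on MS, at 1.99, 1.98 and 2.04 RPM against 0.776, 1.01 and 1.23 RPM, a difference of -0.45 ± 0.16 (log2 ± SE; limma adjusted p = 0.0347). That call was lost with centred libraries (0.112), by edgeR and DESeq2 (0.0523 to 0.369), and without any 1 of the 6 NaCl libraries or sos2-2 MS replicate 3 (up to 0.174).

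**Figure D3:**
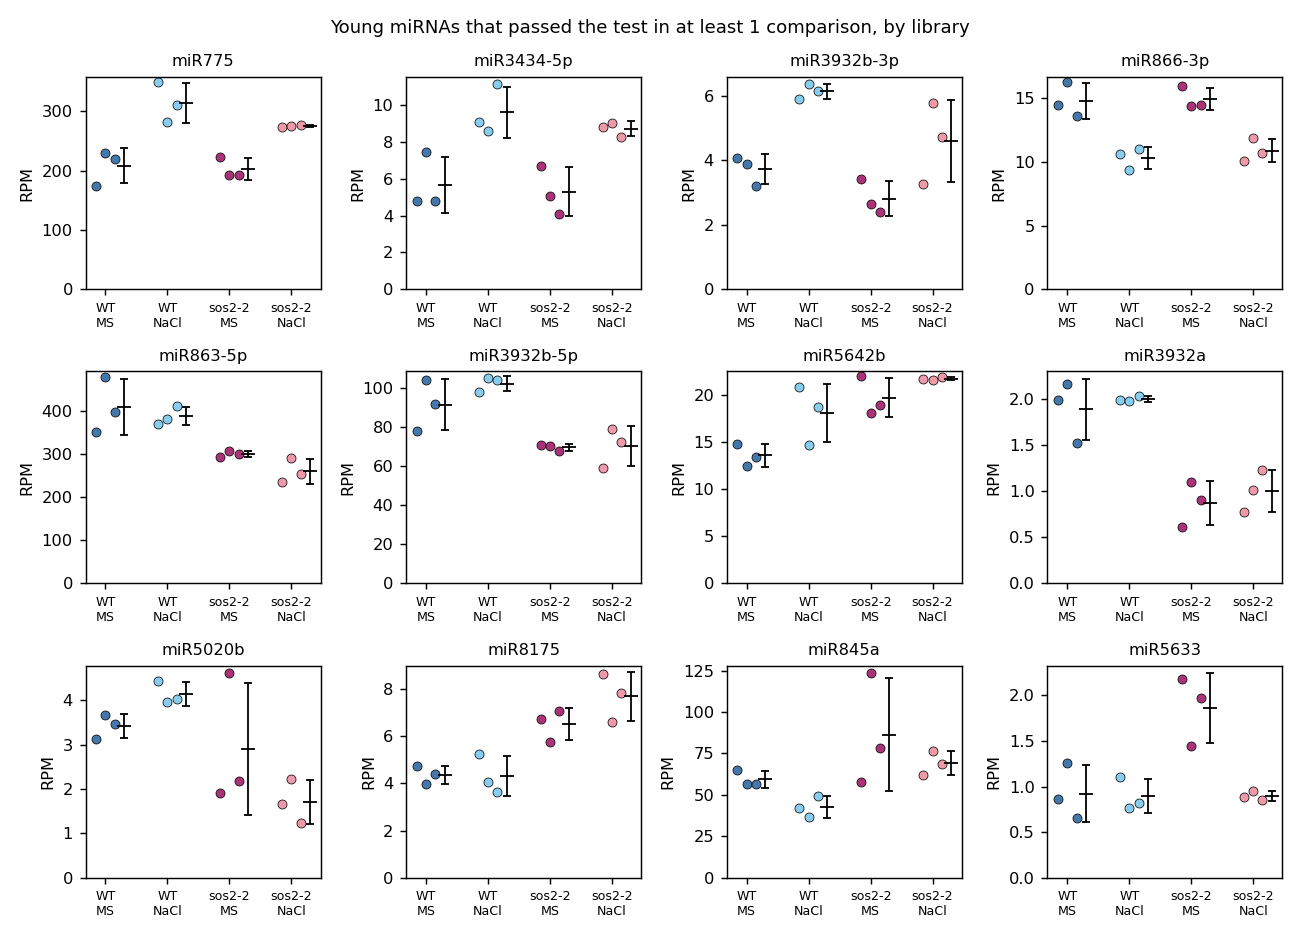
The level of the 12 young miRNAs called in at least 1 comparison is plotted in RPM for each library (points), by group, with the group mean and SD (black). miR775 and miR3434-5p are higher in NaCl in both genotypes, miR866-3p is lower, miR863-5p and miR3932b-5p are lower in sos2-2 in both media, and miR8175 is higher there.

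Both miR863-5p and miR3932b-5p lie in 1 stretch of chromosome 4 that holds 9 tested young miRNAs of 6 hairpins within 46.1 kb, chr4:7844612-7890715. This stretch was chosen after the values were seen, so the pattern is given without a test. On the plus strand it holds miR5026 (chr4:7844612-7844632) and miR850 (chr4:7845756-7845777), both in introns of the noncoding gene AT4G13495, and miR863-5p (chr4:7846644-7846664) in an exon of that gene. Its partner miR863-3p (chr4:7846835-7846855) lies past the annotated end of that gene. On the minus strand follow miR5996 (chr4:7882848-7882869), both arms of miR841a (chr4:7885296-7885316 and chr4:7885393-7885413) and both arms of miR3932b (chr4:7890590-7890610 and chr4:7890695-7890715).

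All 9 stood below the median miRNA in sos2-2 in both media. The differences ran from -0.45 to -0.13 on MS and from -0.44 to -0.01 in NaCl. Their medians were -0.33 and -0.20, where the young median was -0.06 and -0.03. Of all 141 tested young miRNAs, these 9 included, 87 stood below the median miRNA on MS and 86 in NaCl. By limma, 0 of the 9 were called on MS, although centred libraries gave 3 calls (miR863-5p, miR841a-5p and miR3932b-5p), and in NaCl miR863-5p and miR3932b-5p were called. The neighbours miR857 and miR397b inside the stretch are outside the young set, miR857 through the listed exclusions and miR397b through its number. These neighbours stood above the median miRNA, at 0.07 and 0.11 on MS and 0.26 and 0.18 in NaCl, not called. Summed, the 9 reached 807, 1032 and 912 RPM in wild type on MS and 975, 880.4 and 922 RPM in wild type in NaCl. In sos2-2 they reached 765, 682 and 717 RPM on MS and 635, 716 and 689 RPM in NaCl, below every wild type library. The sequences of miR5026, miR841a-3p and both arms of miR3932b each have 2 exact copies in the genome. Their reads therefore need not come from this stretch.

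The young share was also computed without this stretch. Because the stretch was chosen after its lower values in sos2-2 were seen, leaving it out narrows the gap by construction. Where the lower share comes from was therefore not tested. Without these 9 miRNAs, the young share of listed miRNA RPM was 2.47% ± 0.109 in wild type and 2.30% ± 0.102 in sos2-2 on MS (SD, n = 3). In NaCl it was 2.57% ± 0.0767 in wild type and 2.46% ± 0.0944 in sos2-2 (SD, n = 3). The genotypes then overlapped in NaCl, at 2.48 to 2.61% against 2.35 to 2.54%, and nearly met on MS, at 2.40 to 2.60% against 2.20 to 2.40%.

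**Figure D4:**
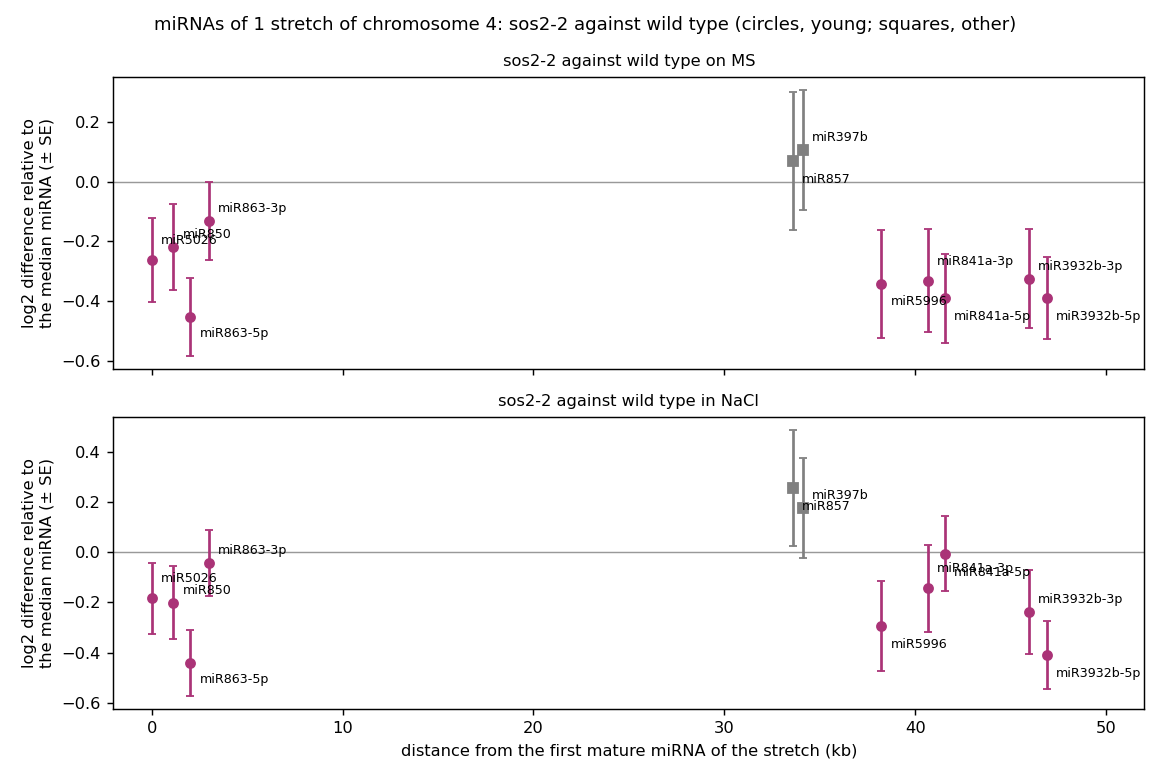
For each miRNA of the stretch, the log2 difference of sos2-2 from wild type relative to the median miRNA (± SE) is plotted against its distance in kb from the first mature miRNA, on MS (upper panel) and in NaCl (lower panel); second arms of a hairpin are set slightly to the right. The 9 young miRNAs (circles) lie below 0 in both media, and the neighbours miR857 and miR397b (squares) above it.

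The arms of a hairpin were unequal for most young miRNAs. For 21 hairpins both arms were tested, the 5p arm led in 10 and the 3p arm in 11, and 14 of the 21 had the same leading arm in all 12 libraries. The ratio of miR863-5p to miR863-3p was 8.06 ± 0.726 in wild type on MS and 6.46 ± 0.631 in sos2-2 (SD, n = 3). In NaCl it was 7.74 ± 0.849 and 5.90 ± 0.875. The range in sos2-2 lay below that of wild type on MS and met it in NaCl (5.03 to 6.785 against 6.778 to 8.39). miR863-3p itself, at 44.5 to 54.1 RPM in wild type on MS and 42.6 to 48.6 RPM in sos2-2, overlapped between the genotypes.

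In miR3932b the arm ratio moved with salt in place of genotype. The 5p arm exceeded the 3p arm 24.9 ± 5.04 times in wild type on MS and 16.7 ± 0.194 times in NaCl (SD, n = 3). In sos2-2 the values were 25.3 ± 3.90 and 15.7 ± 2.23, and in both genotypes the salt range lay below the MS range. The 3p arm shares its sequence with miR3932a, so reads of either gene can enter this ratio. Over all libraries, the 5p to 3p ratio lay between 6.60 and 8.34 for miR822 and between 0.161 and 0.204 for miR846. Within these ranges some groups stood apart. In sos2-2, miR846 spanned 0.175 to 0.184 on MS and 0.195 to 0.204 in NaCl, while its media overlapped in wild type. In NaCl the genotypes did not overlap for miR846 (0.177 to 0.188 in wild type). Nor did they for miR822 (6.60 to 6.93 in wild type, 7.19 to 7.56 in sos2-2).

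The mRNA tables were read for 23 genes known from earlier work in Arabidopsis as targets of young miRNAs, 14 of which averaged at least 1 TPM and were tested with limma on log2(TPM + 1) among 16564 genes. A site in the transcript was sought for each as the best ungapped antisense match in RefSeq transcripts, and the 6 printed here belong to the miRNAs and genes described next. They are written 5′ to 3′, and capitals mark bases that do not form a Watson-Crick pair with the miRNA (G:U pairs included).
miR775 site in GALT9: uCgUacugcuagaUaucgaa
miR823 site in CMT3: GucuuauaugaucaUcacccU
miR858a site in MYB111: CaggAAgaacagacaacgaaa
miR846-3p site in AT5G49850: GauucaaAcacuucaauuUaa
miR856 site in MTP1: gUugaaguuGuugguGggauua
miR863-3p site in SE: auuaugucuuguuCcucCcaa
The first 5 lie in coding sequence, in GALT9 at chr1:19872174-19872193 (plus strand), CMT3 at chr1:26249567-26249587 (minus strand), MYB111 at chr5:19999866-19999886 (minus strand), AT5G49850 at chr5:20261837-20261857 (minus strand) and MTP1 at chr2:19238338-19238359 (plus strand). The site in SE lies in the 3′ UTR at chr2:11576469-11576489 (plus strand). The best matches for miR825 in MIST1 and miR840-3p in WHY3 left 7 and 5 bases unpaired. The miR840 match in AT2G02750 lies within the miR840 hairpin itself, which overlaps the 3′ UTR of that gene.

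With salt in wild type, 2 of the 14 target genes were called, 1 higher and 1 lower, where 9.41% of all tested genes were called (1.70% higher and 7.71% lower). CMT3, the chromomethylase that maintains CHG methylation, went from 6.58, 4.49 and 6.73 TPM on MS to 3.87, 3.41 and 3.03 TPM in NaCl. Again without overlap, CMT3 fell by 0.42 ± 0.18 (log2 ± SE relative to the median gene; limma adjusted p = 0.0384). The call ended without MS replicate 1 or 3 or NaCl replicate 2 or 3 (adjusted p up to 0.155), with no filter (0.0696) and with only the groups compared (0.0573). Its miRNA miR823 stood at 30.7, 32.2 and 32.7 RPM on MS and at 44.6, 37.8 and 38.3 RPM in NaCl, without overlap and without a call. In sos2-2, CMT3 went from 6.04 and 5.15 TPM on MS to 3.85, 3.66 and 4.63 TPM in NaCl, without overlap. That change of -0.55 ± 0.20 (log2 ± SE) was not called (limma adjusted p = 0.327). There miR823 overlapped between the media, at 43.2, 30.2 and 30.7 RPM on MS and 32.4, 40.3 and 35.6 RPM in NaCl. In wild type, MYB111, a regulator of flavonol synthesis, went from 3.24, 1.75 and 3.68 TPM to 4.53, 7.94 and 6.18 TPM.

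That rise of MYB111 was 1.11 ± 0.23 (log2 ± SE; limma adjusted p = 0.0211), lost without MS replicate 2 or NaCl replicate 2 or 3 (adjusted p up to 0.113) and with no filter (0.0716). miR858a, its miRNA, stood at 50.0, 82.6 and 65.8 RPM on MS and at 62.0, 112 and 78.7 RPM in NaCl, with overlapping libraries. GALT9, the target of miR775, stood at 3.13, 1.86 and 2.37 TPM on MS and at 2.46, 2.19 and 1.21 TPM in NaCl, overlapping and not called (-0.03, adjusted p = 0.438). Genes here moved by a median of -0.21 with salt in wild type, 0.16 with salt in sos2-2, -0.05 between the genotypes on MS and 0.32 in NaCl (log2).

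In sos2-2, salt gave 1 called target among 14, where 6.59% of all tested genes were called and 5.66% were called higher. The jacalin lectin gene AT5G49850 went from 2.57 and 2.23 TPM on MS to 4.91, 3.52 and 4.94 TPM in NaCl, a change of 0.51 ± 0.20 (log2 ± SE; limma adjusted p = 0.0469). The call was lost under every other setting tried, and without wild type MS replicate 1 or 3, wild type NaCl replicate 2, either sos2-2 MS library or sos2-2 NaCl replicate 1 or 3 (adjusted p up to 0.355). Another jacalin gene, AT5G28520, was listed at 0 in all 3 wild type MS libraries and at 0.381, 1.08 and 0.654 TPM in NaCl. In sos2-2 it stood at 0.0918 and 0 TPM on MS and at 0.589, 2.08 and 1.39 TPM in NaCl. It averaged under 1 TPM and was not tested, and its miRNA miR846-3p was called in no comparison.

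Between the genotypes, limma called 0 of 14 target genes on MS, where 2.79% of all tested genes were called. In NaCl it called 4, all higher in sos2-2, where 19.3% of all tested genes were called and 18.9% were called higher. AT5G49850 stood at 1.75, 1.92 and 1.85 TPM in wild type and 4.91, 3.52 and 4.94 TPM in sos2-2, a difference of 0.61 ± 0.18 (log2 ± SE relative to the median gene; limma adjusted p = 0.00192). The libraries did not overlap, and this call held under every setting and without any 1 library. With centred libraries it remained the 1 target called higher, beside 1 called lower, SUVH5.

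The other calls were smaller relative to the median gene. They were 0.44 for the jacalin gene AT1G33790 (adjusted p = 0.0113), 0.45 for the auxin repressor gene IAA28 (0.0270) and 0.45 for the vacuolar zinc transporter gene MTP1 (0.0116), all lost with centred libraries. All were also lost without wild type NaCl replicate 3 (adjusted p up to 0.0864), and IAA28 also without sos2-2 NaCl replicate 1 or 3 and with no filter (0.0527); without wild type NaCl replicate 1 the value of IAA28 was 0.24. On MS the differences of these genes relative to the median gene were larger, at 0.80 (AT1G33790), 0.58 (IAA28) and 0.57 (MTP1). The MS libraries did not overlap, and none was called (limma adjusted p = 0.0600, 0.264 and 0.188). The miRNAs of these genes gave no call: miR847, which targets IAA28, stood at 10.4, 10.2 and 8.86 RPM in wild type and 3.77, 9.19 and 7.14 RPM in sos2-2 in NaCl. miR856, which targets MTP1, was at 0 in 8 of 12 libraries and at most 0.204 RPM. SE, which miR863-3p targets, stood at 14.4, 12.6 and 12.8 TPM in wild type and 17.6, 12.3 and 20.1 TPM in sos2-2 in NaCl, not called (-0.03, adjusted p = 0.305). The interaction called 0 targets, where 2.04% of all tested genes were called.

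**Figure D5:**
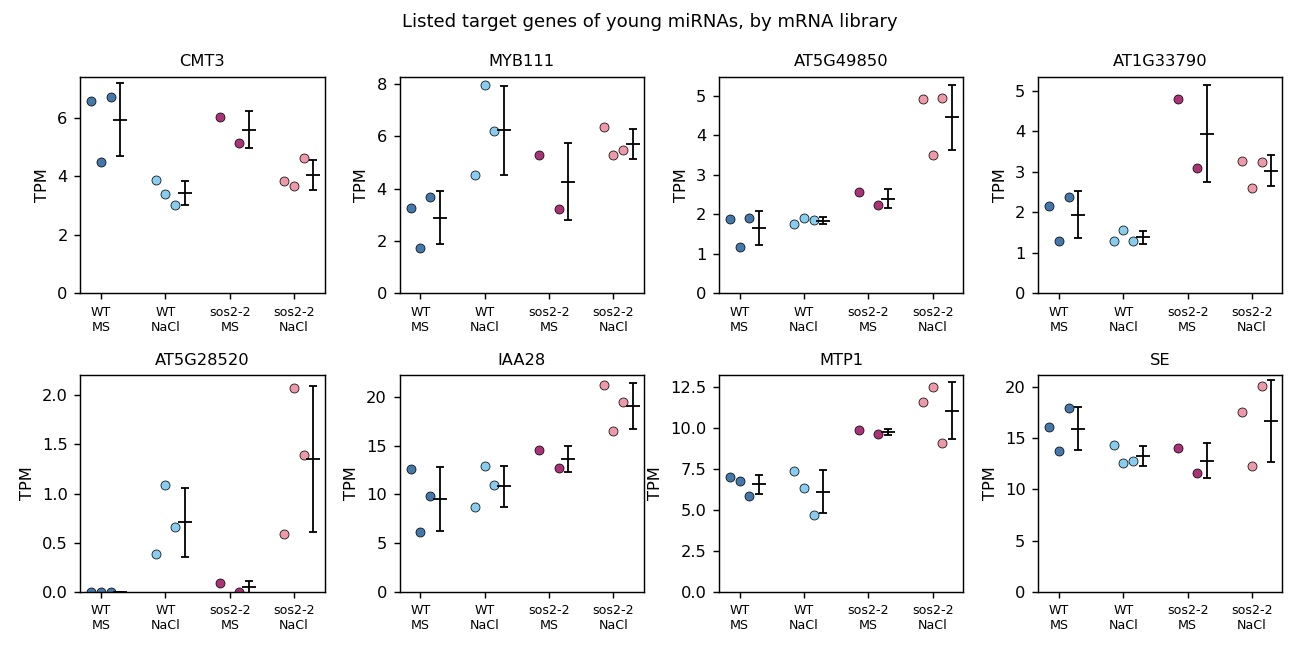
The level of 8 listed target genes is plotted in TPM for each mRNA library (points), by group, with the group mean and SD (black). CMT3 is lower in NaCl in both genotypes, and AT5G49850 is highest in sos2-2 in NaCl. AT5G28520 is near 0 on MS in both genotypes, and SE overlaps between all groups.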

How the data were processed

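Small RNA levels were deposited by the authors as RPM per mature miRNA, and mRNA levels as TPM per transcript, here summed per gene. The submitters' processing notes name cutadapt, featureCounts 1.6.4, kallisto 0.46.2, sleuth 0.30.0 and TAIR10; the small RNA aligner and the rule for reads that fit several genes are not given in the sources used here. Whole reads were recovered from the deposited RPM in all 12 small RNA libraries (2737 of 2737 values of up to 200 reads lay within 0.1 of a whole read). Count tests with edgeR 4.0.16 and DESeq2 1.42.0 were run on 11 libraries, since wild type NaCl replicate 2 held 98 values of at most 20 reads, fewer than the 100 required of a library, and again on all 12, which was added after seeing the data. The main test was limma 3.58.1 (R 4.3.3) with an intensity trend on log2(value + 1), fitted to all 4 groups, for features averaging at least 1 RPM or TPM, and it was tested on simulated data. Small RNA depth was 16690750 to 19644812 reads per library; TPM keep no depth. The members, the target list and the stretch of chromosome 4 were chosen with earlier results of these data known. Named members are those called, the 8 most abundant, the 3 largest changes each way per comparison, partner arms, those with a listed target and the neighbours of the number rule. Small RNA columns were matched to groups by the genotype and medium in their names, and replicate numbers were read from the same names. The difference of each library from its group mean was correlated between libraries with equal replicate numbers. In small RNA, r was 0.271, 0.215 and 0.172 for salt in wild type and -0.0133, 0.0482 and 0.0516 for salt in sos2-2. Between the genotypes it was 0.195, 0.152 and -0.0210 on MS and 0.377, 0.353 and -0.128 in NaCl. In mRNA it ran from -0.526 to 0.294. Libraries with unlike numbers were not compared, so pairing by number was not established. Alternatives were other pseudocounts and level filters, centring, a replicate block, fits of only the groups compared, count tests and leaving out each library.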

Additional observations from a re-analysis of the deposited data

Results flagged for a closer look

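miR5651 was picked out because its salt change went in opposite directions in the genotypes, with no overlap of libraries in either. It stood at 10.5, 10.5 and 9.98 RPM in wild type on MS and at 12.2, 11.4 and 13.9 RPM in NaCl. In sos2-2 it stood at 12.1, 12.9 and 13.0 RPM on MS and at 11.4, 11.5 and 11.6 RPM in NaCl. The interaction of genotype and salt for miR5651 was -0.38 on the log2 scale as deposited (SE 0.18) and missed the threshold, with a limma adjusted p of 0.583, so a difference between the genotypes was not established for it.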

How the results depend on the processing

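Over 1163 repeats of the results under other settings, 0 changed direction. Among them, 151 were weaker, 69 were stronger and 72 were counts of calls that moved beyond 1.5 times. A count has no direction to change, and the repeats drew on the same libraries. The count of young miRNAs called for salt in wild type was 2 with no level filter. For salt in sos2-2 it was 1 with a pseudocount of 0.1, 0 with no filter, 10 with centred libraries, 6 with a replicate block, 10 by edgeR with TMM or RLE scaling on 11 or 12 libraries, and 8 and 10 by DESeq2 on 11 and 12. For the genotypes on MS it was 0 above 5 RPM, 5 with centring, 7 with the block, 0 with only the groups compared, 8 and 6 by edgeR with either scaling on 11 and 12 libraries, and 6 and 7 by DESeq2. For the genotypes in NaCl it was 3 above 5 RPM and 3 by edgeR with either scaling on 11 libraries. Tests on all 12 libraries were chosen after seeing the data. With the replicate block the counts for salt in wild type (4), for the genotypes in NaCl (9) and for the interaction (0) kept within 1.5 times of the main count. Among target genes, salt in wild type gave 0 with no filter and 1 with only the groups compared; salt in sos2-2 gave 0 with a pseudocount of 0.1, with the block and with only the groups compared; MS gave 1 with centring and 1 with only the groups compared; NaCl gave 2 with centring. Leaving out 1 library moved the young counts to between 0 and 5, 0 and 8, 0 and 5, and 0 and 7 in the order above and left the interaction at 0; target counts ran over 0 to 3, 0 to 1, 0 to 1 and 1 to 4, with 0 for the interaction. Where settings moved a count, the cause was not tested. With 3 libraries a group and most members under 10 RPM, changes the size of the spread between libraries (median SD of 0.14 to 0.17 on the log2 scale) were not detectable.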
